A study of Mus musculus with 18 samples.

Results

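The data compared meiotic DNA breaks with the histone mark that places them, separately on the 2 parental chromosomes of 1 infertile mouse hybrid. The mice were male (PWDxB6)F1 hybrids with a PWD mother and a B6 father. Their Prdm9 genotype was PWD/B6, and the males of the DMC1 sample were about 10 weeks old. DMC1 ChIP-seq of testis gave 1 map from 1 library, and H3K4me3 ChIP-seq of whole adult testis gave 2 biological replicates with 1 input control. The labels call these H3K4me3 mice infertile and littermates of the rescue F1 mice, whose Prdm9 genotype is PWD/Humanized. The reciprocal F1 has the mother and father exchanged, (B6xPWD)F1, with both the B6 and PWD alleles. DMC1 maps of B6 mice with Prdm9 B6/B6 and of PWD mice with Prdm9 PWD/PWD were used to pick sites in 1 setting. The B6/B6 map is a re-analysis of a library outside this series. The rescue, reciprocal and PWD/PWD DMC1 samples were also from mice of about 10 weeks. The number of animals behind a library is not given in the sources used here. A site was used when it was an autosomal hotspot of the DMC1 map, had an H3K4me3 bin of 1 kb with the same centre, was not marked by the authors as overlapping a PRDM9-independent H3K4me3 peak, and had at least 10 informative H3K4me3 reads, that is, reads that carry a difference between the B6 and PWD genomes. Of 23554 autosomal hotspots 12380 met this rule, 52.6%, and they held 78.6% of the DMC1 heat. A further 3794 hotspots were marked PRDM9-independent and 7380 had fewer reads. The sites used were hotter than the hotspots left out for few reads, with a median heat of 55.4 against 13. Close to the limit, sites with 8 to under 10 reads had a median heat of 17.3 and sites with 10 to under 12 reads 18.5. All coordinates are mm10.

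PRDM9 is a zinc-finger protein of meiotic cells that binds a DNA word, trimethylates H3K4 on the nucleosomes around it and so marks where SPO11 cuts both strands. The cut ends are resected to single-stranded DNA, on which DMC1 assembles and searches for the homologous chromosome. In hybrids of PWD and B6 a binding word can be present on one parental chromosome and eroded on the other, so that the homologue of a cut chromosome is unmarked at that place. Both assays used bulk testis, so fewer cells at a stage and less signal per cell cannot be told apart. DMC1 signal grows both with the number of breaks and with the time DMC1 stays on them, and these cannot be told apart in such a map.

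Each site gave 2 chromosome parts. Heat, the authors' DMC1 signal of a hotspot in relative units, was split by the B6 share of DMC1 reads, and the H3K4me3 enrichment over local background was split by the B6 share of informative H3K4me3 reads. A DMC1 share was listed for 12196 of the sites, which makes 24392 parts. Over these sites the B6 chromosome held 50.4% of the heat and 47.6% of the H3K4me3. All 12380 sites together held 741714 fragments of ChIP replicate 1, 779853 of replicate 2 and 345973 of input, with medians of 43, 46 and 27 fragments a bin. The median site had 34.4 informative reads, with quartiles of 18.6 and 68.8. Fragment counts of the replicates had a Spearman rho of 0.946 across the sites, which share their DNA sequence and bin length and are not replicates of each other.

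The following 4 sites show the kinds of place the comparison is about, as 200 bases of the mm10 B6 reference in forward orientation. Capitals show a 10-letter word that was more frequent at hotspots of that allele than beside them. Most hotspots of either allele lacked it. The hottest site of the B6 allele with an even H3K4me3 share, from 0.4 to 0.6, lay in an intron of Ankfn1 (chr11:89611851-89612050). The hottest site of the B6 allele marked on PWD lay 329849 bp from Vgll3 (chr16:66196118-66196317). The hottest site of the PWD allele marked on B6 lay in an intron of Sorcs1 (chr19:50170170-50170369), and the hottest even site of the PWD allele lay 239310 bp from Gm597 (chr1:29019463-29019662).
Ankfn1, B6 allele, both chromosomes: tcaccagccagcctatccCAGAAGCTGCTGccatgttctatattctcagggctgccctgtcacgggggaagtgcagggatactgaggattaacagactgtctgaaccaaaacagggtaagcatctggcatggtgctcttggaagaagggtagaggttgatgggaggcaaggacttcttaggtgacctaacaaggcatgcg
Vgll3, B6 allele, PWD chromosome: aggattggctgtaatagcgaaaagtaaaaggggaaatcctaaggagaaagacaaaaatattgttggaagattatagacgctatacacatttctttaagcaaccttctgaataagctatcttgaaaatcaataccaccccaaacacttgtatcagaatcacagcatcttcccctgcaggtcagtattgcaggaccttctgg
Sorcs1, PWD allele, B6 chromosome: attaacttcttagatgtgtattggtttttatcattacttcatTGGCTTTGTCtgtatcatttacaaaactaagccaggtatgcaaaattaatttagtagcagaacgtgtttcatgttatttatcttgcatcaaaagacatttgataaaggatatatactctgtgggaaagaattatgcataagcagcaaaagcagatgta
Gm597, PWD allele, both chromosomes: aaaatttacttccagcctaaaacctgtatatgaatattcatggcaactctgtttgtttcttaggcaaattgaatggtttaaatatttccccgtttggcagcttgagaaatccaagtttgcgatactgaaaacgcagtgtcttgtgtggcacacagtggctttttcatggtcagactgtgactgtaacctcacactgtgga
The capitals mark GNNGCTNCTG in the Ankfn1 site, where matches on both strands overlap, and GNCNAAGNCA on the reverse strand in the Sorcs1 site. The Vgll3 site is shown on the B6 chromosome, which is not the one that was marked, and its 200 bases hold no match. The even Gm597 site held none either. The Ankfn1 and Sorcs1 sites lie on odd-numbered autosomes, from which the words were chosen.

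The 4 sites were chosen for their heat and are a description. In the Ankfn1 intron the bin held 355 and 348 ChIP fragments in the replicates and 30 input fragments, an enrichment of 11.5. Heat there was 566.2, and it was split about evenly, 291.6 on B6 and 274.6 on PWD, which made 51.7 and 46.5 heat per unit of H3K4me3. The Vgll3 site, far from this gene of a transcriptional cofactor, had less H3K4me3 than the Ankfn1 site and more heat. It held 119 and 100 fragments over 21 of input, an enrichment of 5.01 that was all on PWD, and a heat of 635.8, of which 633.9 was on PWD, 126.6 per unit. In the intron of Sorcs1, which encodes a sorting receptor, 55 and 81 fragments over 8 of input gave an enrichment of 8.09 and a heat of 845.5. Its B6 chromosome carried 842.1 of the heat at 112.0 per unit. The B6 share of H3K4me3 there was 0.929, from 29.1 informative reads only. The even Gm597 site had 122 and 134 fragments over 15 of input, an enrichment of 8.26 and a heat of 483.3, with 77.7 per unit on B6 and 42.2 on PWD. These 2 sites marked mainly on 1 chromosome lay above both even sites in heat per unit. The same rule gave 2 more one-sided sites, marked on the chromosome of the allele's own strain and not shown as sequence. An intron of Shb (B6 allele) had 71.7 per unit on B6, and a site 55187 bp from Vps8 (PWD allele) had 68.2 on PWD. Both lay below the 77.7 on B6 at the even Gm597 site.

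Whether the heat of a chromosome varied with the mark of its homologue was asked over all sites. In these libraries it did: at the same H3K4me3 on a chromosome, the less the homologue was marked, the more heat the chromosome had. All 24392 parts were placed in 5 equal levels of H3K4me3, from level 1 (up to 0.0818) to level 5 (above 1.64), and the same limits were used for the homologue. In parts at own level 5, median heat per unit was 60.4 with the homologue at level 1 (quartiles 40.1 and 87.5, 1778 parts), 54.3 at level 2, 45.1 at level 3, 33.5 at level 4 and 24.8 at level 5 (15.3 and 37.6, 1156 parts). The upper quartile with a strongly marked homologue was thus below the lower quartile with an unmarked one. The raw heat of these parts fell with it, from a median of 184.2 to 67.9, while their own H3K4me3 was alike, 2.80 and 2.63. At own level 4 the medians ran from 53.7 to 19.98 (1276 and 604 parts), and at own level 3 from 47.7 to 12.6 (1107 and 456 parts). The ratio of homologue level 1 to level 5 was 2.44 at own level 5, 2.69 at level 4 and 3.79 at level 3, with a geometric mean of 2.92. It grew as the own level fell, to 4.68 at level 2. A site is in the map only if it was called a DMC1 hotspot, so a weakly marked part with an unmarked homologue was kept through its own heat, and one with a level 5 homologue could be kept through the homologue. How much of the ratio at low own levels comes from this call was not tested. At sites also called in the B6/B6 or PWD/PWD map, with levels set anew within them, the geometric mean was 2.62. With 1 DMC1 library no replicate error of heat exists and no test was made. The level of a chromosome and that of its homologue come from the same bin and the same share, so an error in the share moves them in opposite directions. Taking the levels from the H3K4me3 table of the reciprocal F1, a separate set of libraries, gave 2.43 at 7055 sites. Heat was still divided by the H3K4me3 of the infertile F1, so an error there stays in the quotient. The ratio with the infertile levels was not computed at these sites alone. Levels computed from the fragment counts of both replicates over input gave 4.45 at the 10790 sites where they were positive. Keeping the bins marked PRDM9-independent gave 13.7.

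**Figure D1:**
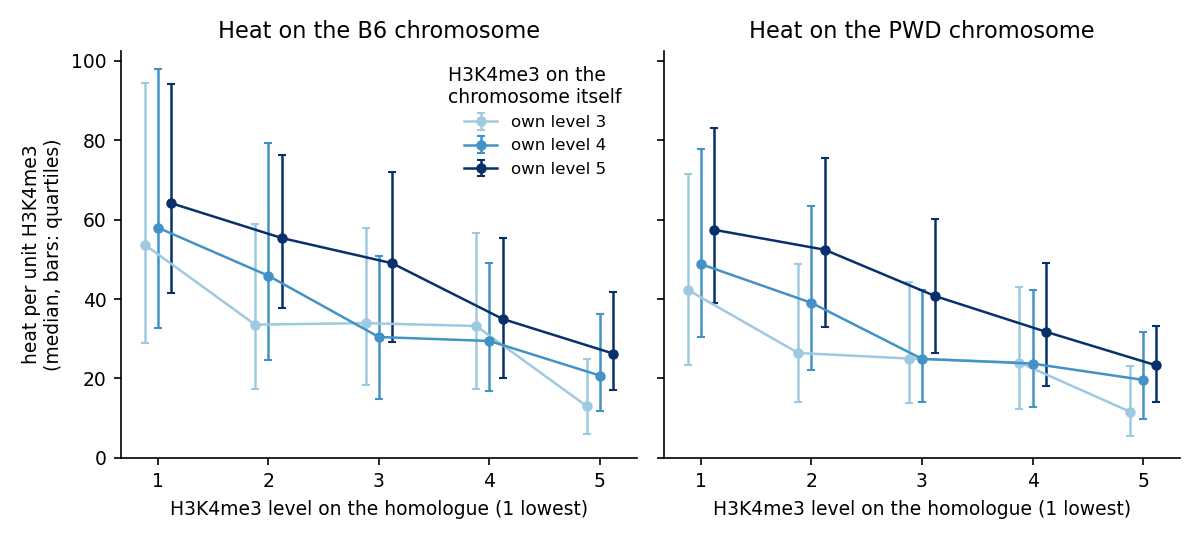
Median heat per unit of H3K4me3 (y, bars are quartiles over sites) against the H3K4me3 level of the homologue (x, 1 lowest to 5 highest) on the B6 (left) and PWD (right) chromosome, with 1 line for each of the upper 3 levels of H3K4me3 on the chromosome itself. On both chromosomes each line starts highest where the homologue is at level 1 and ends lowest at level 5.

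The fall was present on both chromosomes. On the B6 chromosome heat per unit at own level 5 fell from 64.2 to 26.3, a ratio of 2.44, and on the PWD chromosome from 57.4 to 23.3, a ratio of 2.47. Over the upper 3 own levels the geometric mean ratio was 3.04 on B6 and 2.81 on PWD. The mix of alleles differed between the ends compared. At own level 5 on B6, PWD allele sites gave 563 of 783 parts with the homologue at level 1 and 319 of 578 at level 5. On PWD, B6 allele sites gave 733 of 995 and 243 of 578. Ratios within each allele, given below, were smaller. The middle of the range was flat at own level 3, where homologue levels 2, 3 and 4 had medians of 30.2, 28.5 and 27.8. A chromosome with next to no mark of its own had little heat whatever its homologue carried. At own level 1 the median heat was 0.947, 0.860, 0.946 and 1.09 with the homologue at levels 2 to 5, and 4.67 in the 44 parts where the homologue was at level 1 as well. The lowest heat of a site in the map is 4, and a site with both parts at level 1 is listed only above that floor, so this last value is set in part by the hotspot call.

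The homologue was also measured relative to the chromosome itself. At own level 5, parts whose homologue had at most 0.02 times their own H3K4me3 had a median of 60.3 per unit (1649 parts). From 0.02 to 0.1 times it was 53.7, from 0.1 to 0.25 times 47.5, and from 0.25 to 0.5 times 39.5. Near equality it was 26.5 from 0.5 to 1 times and 23.9 from 1 to 2 times. Few parts had a homologue marked more than 2 times as strongly, 47 in all, and their median was 11.6. The median was thus lower at each step of homologue marking.

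High heat per unit was counted as well. Over the upper 3 own levels 18.9% of all 14635 parts exceeded 2 times the common median of 35.8. With the homologue at level 1 the share was 34.8% (1450 of 4161, Wilson 95% interval 33.4 to 36.3%), and it stepped down through 22.1, 13.5 and 9.66% to 3.88% (86 of 2216, 3.15 to 4.77%) at level 5. The share with the homologue at level 1 was 39.7% on B6 and 30.5% on PWD. These intervals cover the counting of parts only, and parts of 1 library are not replicates. In sums, the parts of these upper 3 own levels with homologue level 1 held 31.4% of the H3K4me3 and 42.5% of the heat of all parts, and those with homologue level 5 held 18.4% and 10.6%.

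The 2 chromosomes of a single site were then compared, which keeps the site, the bin and the library the same. The more strongly marked chromosome had more heat per unit than the other. Over 4032 sites where it held 0.6 to 0.9 of the H3K4me3, the median ratio was 1.36, and 59.4% (57.9 to 60.9%) of sites were above 1. It was 1.56 where B6 was the more marked chromosome and 1.16 where PWD was. The ratio was larger at sites with more informative reads. With at least 30 informative reads it was 1.80 (1901 sites), and with at least 100 it was 2.54, with 88.3% (85.0 to 90.98%) of 445 sites above 1. At that depth it was 3.10 where B6 was the more marked chromosome (229 sites) and 2.17 where PWD was (216 sites). Sites with more reads were also more strongly marked. Median informative reads were 15.4 where both parts were at level 2 and 106.4 where both were at level 5. A surer share and a stronger mark were thus not told apart.

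The DMC1 shares were compared with the H3K4me3 shares directly. With at least 100 reads, sites where the more marked chromosome held from 0.7 to 0.8 of the H3K4me3, with a median of 0.746, had a median DMC1 share of 0.881 (quartiles 0.837 and 0.921), larger than the H3K4me3 share in 95.1% of 122 sites. From 0.6 to 0.7 the medians were 0.639 and 0.729, and from 0.8 to 0.9 they were 0.860 and 0.956. With the limit of 10 reads the class from 0.6 to 0.7 went the other way, with 0.643 for H3K4me3 and 0.625 for DMC1, which was larger in 46.1% of 1673 sites. Where PWD was the more marked chromosome, this class had 0.642 and 0.577. From 0.8 to 0.9 DMC1 was the larger at 10 reads too, 0.947 against 0.858. Near evenness at 100 reads, from 0.5 to 0.6, they were 0.538 and 0.542. At 100 reads DMC1 was thus more one-sided than H3K4me3 between 0.6 and 0.95. Above 0.95 it was not, with medians of 0.998 for H3K4me3 and 0.995 for DMC1. Across all sites the DMC1 share leaned to B6 in the middle of the range, with a median B6 share of 0.522 where H3K4me3 had 0.452.

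**Figure D2:**
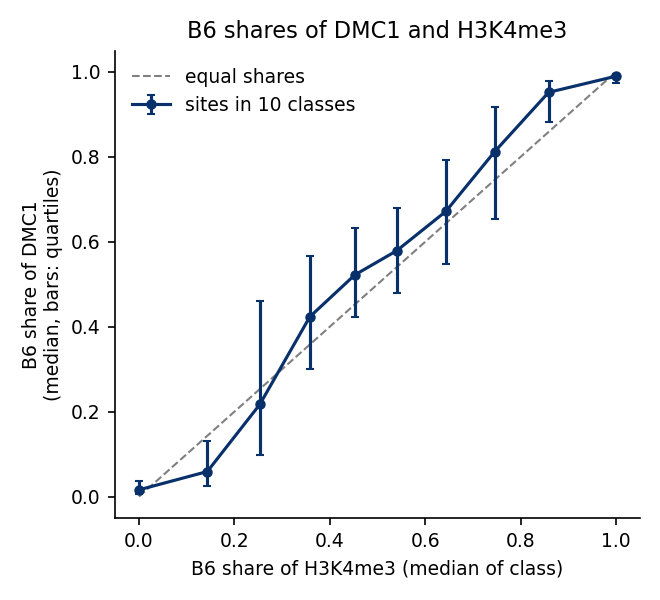
B6 share of DMC1 (y, median with quartiles) against the B6 share of H3K4me3 (x) in 10 classes of sites, with the line of equal shares dashed. The curve lies below the line from 0.1 to 0.3 and above it from 0.3 to 0.9, with 0.952 against 0.859 in the class from 0.8 to 0.9. In the outermost classes it lies just inside the line, 0.016 against 0 and 0.99 against 1.

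Whole sites were compared by side. Sites marked on 1 chromosome, with a B6 share of H3K4me3 above 0.9 or below 0.1, had more heat for the same total mark. At matched total H3K4me3 their heat per unit was 1.84 times that of the other sites, as a geometric mean over the upper 3 of 5 levels. In the highest level the medians were 53.3 (1238 sites) and 30.7 (1201 sites). The 2578 sites on the B6 side held 20.4% of the H3K4me3 and 27.8% of the heat, the 2903 on the PWD side 26.2% and 31.6%, and the 6715 between them 53.4% and 40.6%. Few of the sites used were near promoters on any side, after sites overlapping PRDM9-independent H3K4me3 peaks had been left out. A start of a protein-coding transcript lay within 1 kb of 1.51% of the B6-sided, 1.41% of the PWD-sided and 1.37% of the other sites. In parts more than 1 kb from a start the ratio at own level 5 was 2.43.

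The alleles were taken apart next, by the authors' allele column. One-sided sites of the B6 allele were mostly marked on PWD (1911 against 349 sites), and those of the PWD allele on B6 (1724 against 532). In this more frequent direction, at own level 5, heat per unit of the B6 allele on the PWD chromosome was 59.1 with the homologue at level 1 (quartiles 40.9 and 84.9, 733 parts) and 25.1 at level 5 (16.1 and 34.98, 243 parts), a ratio of 2.36. The PWD allele on the B6 chromosome had 67.8 (46.6 and 97.7, 563 parts) and 30.2 (19.6 and 47.8, 319 parts), a ratio of 2.25. On the chromosome of the allele's own strain the ratio at level 5 was smaller. The B6 allele on B6 had 34.7 (22.8 and 66.2, 67 parts) and 23.1, a ratio of 1.50, and the PWD allele on PWD had 40.1 (24.6 and 61.3, 70 parts) and 22.6, a ratio of 1.77. At own level 4 with the homologue at level 1, the B6 allele had 40.7 on B6 and 53.8 on PWD, and the PWD allele had 43.1 on PWD and 64.4 on B6. The ratios at level 4 were 2.23 and 2.35 for the B6 allele on B6 and PWD, and 2.31 and 1.95 for the PWD allele on PWD and B6. For the PWD allele the order of the ratios was thus the opposite of that at level 5. These differences were not tested.

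Sites given to neither allele stood apart when they were marked on both chromosomes. The 337 such sites had a median heat per unit of 14.4, against 31.7 at 2708 two-sided sites of the B6 allele and 35.8 at 3577 of the PWD allele. One-sided sites given to neither allele had 56.3 on B6 and 53.9 on PWD, within the range of 41.5 to 64.2 of one-sided sites of the 2 alleles. On the levels used so far, the geometric mean ratio of the B6 allele was 2.01 on B6 and 2.54 on PWD. That of the PWD allele was 2.35 on PWD and 2.09 on B6, the last from 2 own levels only. Each was below the value over all sites on the same chromosome, 3.04 on B6 and 2.81 on PWD, where the alleles are mixed. With levels set anew within the sites of 1 allele and both chromosomes pooled, it was 2.65 for the B6 allele and 2.88 for the PWD allele. Pooling mixes the chromosomes, and parts with the homologue at level 1 lay mostly on the chromosome of the other strain.

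The words came from the sites themselves. On odd-numbered autosomes the 10-letter word with 3 open positions that was most in excess in the central 200 bp over windows 2000 bp away was GNNGCTNCTG for B6 allele sites and GNCNAAGNCA for PWD allele sites, counted on both strands. On the even-numbered autosomes, which had no part in the choice, GNNGCTNCTG was present in 16.6% (15.1 to 18.1%) of 2389 B6 allele sites, against 3.77% of their flanking windows, 4.24% of PWD allele sites and 9.60% of all 5898 sites. GNCNAAGNCA was present in 7.56% (6.64 to 8.59%) of 2832 PWD allele sites, against 3.23% of flanks, 3.18% of B6 allele sites and 5.63% of all sites. On the B6 reference the PWD word was held by 9.89% (8.04 to 12.1%) of PWD allele sites marked on B6, by 6.8% of those marked on both and by 5.14% (3.03 to 8.59%) of those marked on PWD, where the flanks had 3.95%. The B6 word was held by 18.9, 17.5 and 14.7% of B6 allele sites in the same order. The intervals of the outer classes overlap for both words. A match describes the letters and does not show that PRDM9 binds there.

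The pattern was present on every autosome. At own level 5, median heat per unit with the homologue at level 1 ran over the 19 autosomes from 40.0 on chromosome 9 through a median of 59.5 to 97.9 on chromosome 19. With the homologue at level 5 it ran from 16.7 on chromosome 6 through 24.7 to 41.7 on chromosome 18. Except on chromosomes 1 and 9, the first value lay above all 19 of the second. The ratio was above 1 on 19 of 19 autosomes, from 1.72 on chromosome 14 to 3.97 on chromosome 19, where the second group held only 18 parts. Among the other autosomes the highest ratio was 3.65 on chromosome 10. Within single sites the ratio was also above 1 on all 19, from 1.17 on chromosome 17 to 1.74 on chromosome 9. Autosomes of 1 library are not replicates, and these values are a description of its spread. In 4 equal stretches of each chromosome from the centromere the ratios were 2.29, 2.16, 2.23 and 3.21, and the median with homologue level 5 was lowest, 19.1, in the last stretch.

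**Figure D3:**
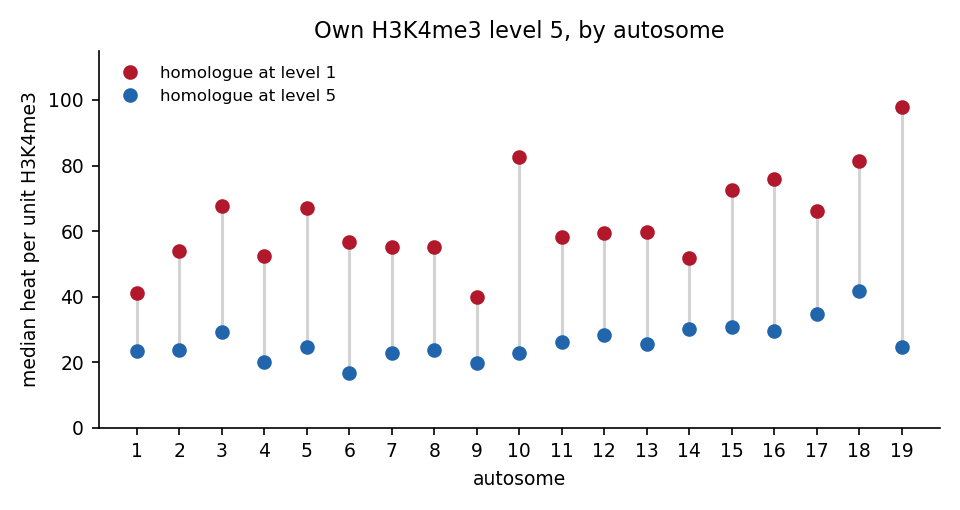
Median heat per unit of H3K4me3 (y) on each autosome (x) for parts at own level 5, with the homologue at level 1 (red) or level 5 (blue). The red point is above the blue on all 19 autosomes, and the red points range from 40.0 to 97.9.

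Autosomes also differed from each other in heat per unit, and shorter ones tended to have more. The sum of heat over the sum of H3K4me3 was 33.1 on chromosome 9, 36.2 on chromosome 1 and 74.9 on chromosome 19, the shortest, a range of 2.26 times. Over the 19 autosomes it had a Pearson r of -0.70 and a Spearman rho of -0.64 with length, given as a description of 1 DMC1 library. With the homologue at level 1 rho was -0.55 and at level 5 -0.61. In the reciprocal F1 the same sums ran from 75.5 on chromosome 1 to 174.2 on chromosome 19 with a rho of -0.58. In the rescue F1 they ran from 60.5 on chromosome 7 to 96.9 on chromosome 3, a range of 1.60 times with a rho of -0.23, and chromosome 19 had 89.8. Whether the crosses differ in this was not tested.

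**Figure D4:**
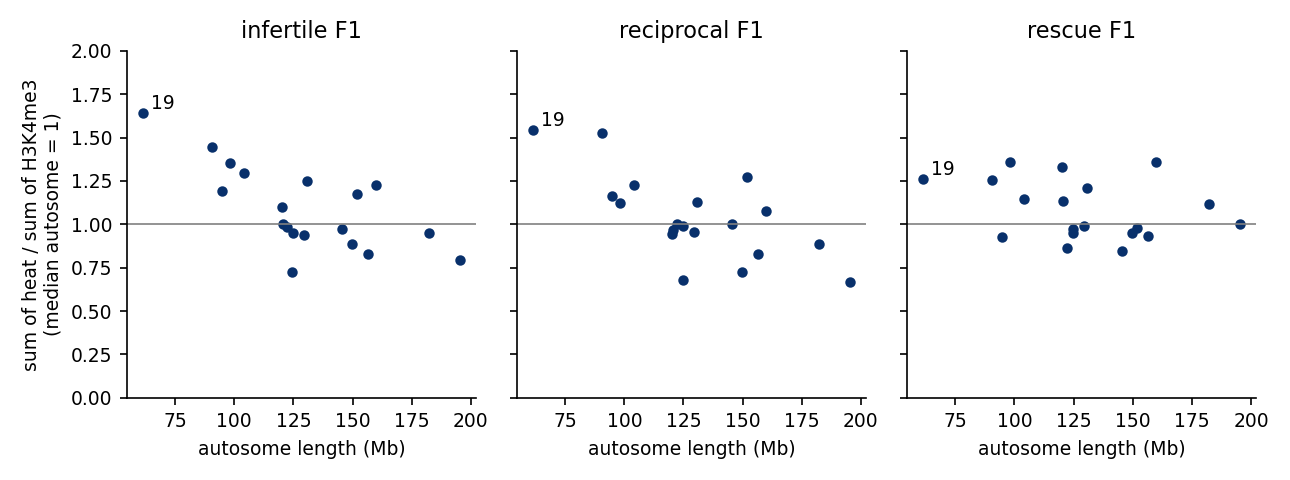
Sum of heat over sum of H3K4me3 for each autosome, relative to the median autosome (y), against autosome length in Mb (x), in the infertile, reciprocal and rescue F1. Chromosome 19, the shortest, is the highest point in the infertile and reciprocal F1 and one of several high points in the rescue F1.

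The 3 hottest sites of each side were named by a fixed rule. The hottest marked on B6, beside Sorcs1, were an intron of Zfc3h1 (chr10:115417932), a gene of nuclear RNA decay, with heat 687.3 and 194.8 per unit, and a site 507405 bp from the netrin receptor gene Dcc (chr18:72858474), with 593.6 and 154.3. The hottest marked on PWD, beside Vgll3, lay 47823 bp from the neurokinin receptor gene Tacr3 (chr3:134982402), with 702.7 and 135.3 per unit, and 158314 bp from Gdnf (chr15:7652532), the gene of a growth factor for spermatogonial stem cells, with 619.8 and 126.9. Sorcs1 itself had 104.5 per unit and Vgll3 127.0. The 3 hottest sites marked on both chromosomes had 148.2 per unit near 2310061N02Rik, 98.4 in Lpp and 49.1 in Ankfn1, so the 2 kinds of site overlapped. Of these 3, 2 were skewed to B6. A site 9675 bp from 2310061N02Rik (chr16:88697494) had a B6 share of 0.817 by H3K4me3 and 0.959 by DMC1, with 174.0 heat per unit on B6 and 33.2 on PWD. In an intron of Lpp (chr16:24512228) the shares were 0.711 and 0.983, and heat per unit was 136.1 on B6 and 5.78 on PWD. At these 2 sites the less marked chromosome thus had the lower heat per unit.

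The extremes of heat per unit were named by the same kind of rule. Among sites in the top 20% of enrichment, the highest were the Zfc3h1 intron, a site 37992 bp from Csmd3 (chr15:48830055) marked on PWD with 176.5, and a second site near Gdnf (chr15:7748618), marked on B6 with 176.0. At the Csmd3 site, 44 and 69 fragments over 16 of input gave an enrichment of 3.16, and the heat was 557.6. The 3 lowest were all sites given to neither allele. An intron of Enpp6 (chr8:47003166) had 188 and 190 fragments over 18 of input, an enrichment of 10.3 and a heat of 12.2, or 1.19 per unit, with even shares of 0.573 by H3K4me3 and 0.564 by DMC1. A site 26411 bp from the germ cell gene Dazl (chr17:50252984), marked on B6, had 1.24 per unit, and a site 17285 bp from Zbtb10 (chr3:9302618), marked on both chromosomes, had 1.53. None of the 3 was within 1 kb of a hotspot of the reciprocal map, while the 3 highest were all in it, with heat of 831.7, 731.7 and 834.5. Of all 12196 sites 10808 had a reciprocal hotspot with a DMC1 share within 1 kb. Heat entered the choice of both groups, and the 3 lowest had 12.2, 5.6 and 8.3, near the lowest heat of the map, 4. Their absence from a second hotspot map is therefore not a separate result.

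Genes of meiotic recombination were taken from a list. Of its 68 genes 66 were found on autosomes and 16 held a site, 19 sites in all, of which 3 were marked on B6, 5 on PWD and 11 on both. Over all sites these sides held 21.1, 23.8 and 55.1%. Their median heat was 56.6 against 56.7 over all sites, and their median heat per unit was 32.3 against 42.0. The hottest lay in an intron of Gm960 (chr19:4629534), which encodes TOPOVIBL, a partner of SPO11. It was marked on B6, with 72 and 75 fragments over 42 of input, a heat of 446.4 and 307.7 per unit at the modest enrichment of 1.45. In a coding exon of the strand-exchange gene Rad54b (chr4:11601748), marked on PWD, heat was 440.7 with 130.7 per unit, and in a UTR of Mre11a (chr9:14833981), a nuclease gene of break processing marked on B6, it was 250.8 with 60.6. An intron of Mei4 (chr9:81993684), needed for break formation, had 132.7 and 37.2 per unit on PWD, and an intron of Rad50 (chr11:53699418), partner of Mre11a, was marked on both chromosomes with 119.2 and 27.5 per unit.

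The same values were taken in the 2 other F1 crosses with split H3K4me3, each within its own tables because the scales differ. The direction was the same in all 3. At own level 5 the ratio of homologue level 1 to level 5 was 4.19 in the reciprocal F1, 2.12 in the rescue F1 and 2.44 in the infertile F1. In the rescue F1 homologue levels 3 and 4 were within 1.17 and 1.05 times level 5, while in the infertile F1 they were 1.82 and 1.35 times. Within sites the order of the crosses changed with the read limit. With at least 10 reads the median ratio was 1.36 for the infertile, 1.53 for the reciprocal (2226 sites) and 1.25 for the rescue F1 (3127 sites). With at least 30 reads these were 1.80, 1.80 (780 sites) and 1.31 (1424 sites), and with at least 100 reads 2.54, 2.08 (75 sites) and 1.46 (209 sites). As a geometric mean over the upper 3 own levels, the reciprocal F1 had a ratio of 6.24 within its own tables (7318 sites). The infertile and rescue F1 had 2.92 and 2.18. When reciprocal heat was instead divided by the H3K4me3 of the infertile F1, at 10808 sites, this mean was 3.31, below 6.24. Both the H3K4me3 table and the sites differ between these 2 values, and the cause of the difference was not tested. Each DMC1 map is 1 library, so the differences between crosses were not tested. Informative reads per site had a median of 34.7 here, 27.0 for the reciprocal F1 and 31.4 for the rescue F1.

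**Figure D5:**
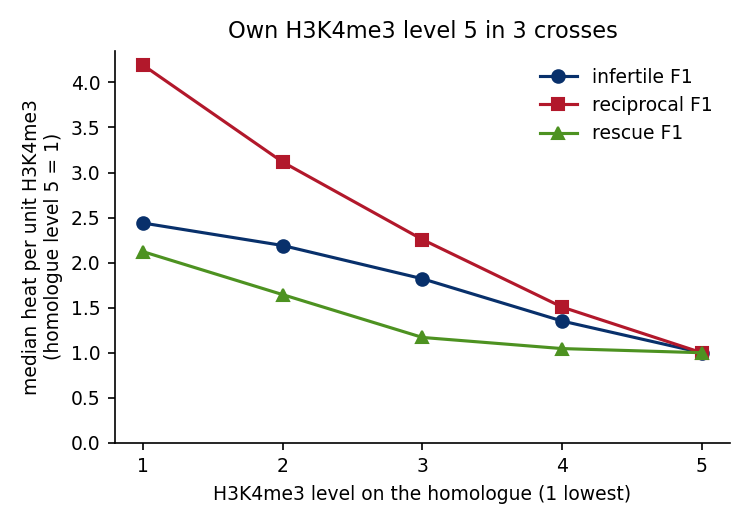
Median heat per unit of H3K4me3 at own level 5, relative to homologue level 5 (y), against the H3K4me3 level of the homologue (x) in the infertile, reciprocal and rescue F1. All 3 lines fall, from 2.44, 4.19 and 2.12 at homologue level 1 to 1.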

How the data were processed

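Only deposited tables were used. The submitters' processing notes name BWA and mm10 for both assays, and SAMtools and bedtools for H3K4me3. How hotspots were called and heat defined is not given in the sources used here. Per the labels' protocols the H3K4me3 replicates had 40 to 50 M usable pairs of 51 bp reads. Heat is the DMC1 signal that the authors deposited, in relative units, and its B6 share a fraction deposited without read numbers, so its depth is unknown. Per the file headers, H3K4me3 counts are fragments per bin, enrichment is a ratio to background coverage nearby, fitted by maximum likelihood and never below 0, the H3K4me3 B6 share is an estimated fraction, and informative reads are an estimated count after background subtraction.

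Here, heat and enrichment were multiplied by the shares, and heat per unit is their quotient. Classes of under 20 parts were left out of the geometric means, but not of the values per autosome. Of the parts 2873 had no H3K4me3 of their own and gave no quotient. Genes came from GENCODE M21 and sequences from RefSeq's GRCm38.p6 assembly, which shares mm10 coordinates. Named sites are the 3 hottest of each side and the 3 highest and 3 lowest in heat per unit among the top 20% of enrichment. The 5 hottest in meiotic genes were added, and, outside chromosome 18, the hottest B6-sided, even and PWD-sided site of each allele. Sequences are shown for some of the last kind. Members and lists were chosen with earlier results of these data known. Alternatives were other read minimums, summaries, class limits, site sets, single replicates and the reciprocal libraries. The code was tested on simulated data. X hotspots were not analysed here. Computation used pandas 2.3.3 and NumPy 2.4.6 under Python 3.11.15, with intervals from SciPy 1.17.1 and figures from Matplotlib 3.10.9.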

Additional observations from a re-analysis of the deposited data

How the results depend on the processing

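All 69 values under other settings stayed above 1, as did the 5 main ratios, and with 1 DMC1 library none has a test. Not all of the 69 are separate. Those without high-input sites repeat the main values because no site was removed. Those of own level 5 alone are already a part of the main means. Values follow in 1 order: homologue level 1 over level 5 on both chromosomes, on B6 and on PWD (2.92, 3.04 and 2.81 in the report), then within sites (1.36) and one-sided over other sites (1.84). Levels were set anew where a setting changed the sites or the H3K4me3 value. A minimum of 30 informative reads gave 3.18, 3.19, 3.24, 1.80 and 1.83. Sums in place of medians gave 2.69, 2.77, 2.60, 1.43 and 1.74. With 3 levels in place of 5 and wider share limits they were 2.23, 2.21, 2.27, 2.46 and 1.87. Keeping PRDM9-independent bins gave 13.7, 13.5, 14.2, 1.39 and 6.60, and those bins had a median heat of 13.3 at a median enrichment of 14.2. B6 allele sites gave 2.65, 2.02, 2.36, 1.31 and 1.82, and PWD allele sites 2.88, 2.67, 2.22, 1.30 and 1.75. Sites within 1 kb of a hotspot of the B6/B6 or PWD/PWD map gave 2.62, 2.69, 2.53, 1.18 and 1.78. Leaving out sites of high input removed none.

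Leaving out either H3K4me3 replicate, with the level taken from fragment counts over input, gave 4.30 to 4.57 on both chromosomes, 4.43 to 4.67 on B6, 4.38 to 4.54 on PWD, 1.43 within sites and 1.85 to 1.89 for one-sided sites. The same computation with both replicates gave 4.45, 4.63, 4.44, 1.43 and 1.86. Sites without a positive level by this computation were dropped. Of 12196 sites 10790 remained with both replicates, 10928 without replicate 1 and 10487 without replicate 2. For the 3 homologue ratios and within sites this change of computation and sites moved the value more than the choice of replicate did. For one-sided sites it moved it less. The setting with both replicates, both reciprocal ones and own level 5 alone were chosen after seeing the data. Heat from the reciprocal map gave 3.31, 3.09, 3.73, 1.62 and 2.13. Levels from the reciprocal H3K4me3 table, at 7055 sites and with heat still divided by the H3K4me3 of the infertile F1, gave 2.43, 2.36, 2.45, 1.56 and 1.63. Own level 5 alone gave 2.44, 2.44 and 2.47, and 1.74 for one-sided sites. The cause of these moves was not tested.

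Pairs were made only of the parental chromosomes within a site. No pairing of samples was possible because each group is 1 DMC1 library and 1 table of H3K4me3, and no result comes from a test. The depth behind the DMC1 shares is unknown, and the few informative reads at weak sites limit the H3K4me3 shares there.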
